A study of Mus musculus with 6 samples.

Results

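The immunoglobulin variable and constant genes were followed in messenger RNA from CD36+ NK and CD36- NK cells of fibrotic mouse liver. Rows were taken by symbol, as variable (V) genes of the heavy, kappa and lambda chains (Ighv, Igkv, Iglv), light chain constant genes (Igkc, Iglc) and the 8 heavy chain constant genes Ighm, Ighd, Ighg1, Ighg2b, Ighg2c, Ighg3, Ighe and Igha, with at least 10 counts summed over the 6 libraries. Of 57180 genes in the table, 359 had such a symbol and 239 met the minimum. These were 112 of 183 heavy V genes, 111 of 160 kappa V genes, 3 of 3 lambda V genes, 8 of 8 heavy constant genes and 5 of 5 light constant genes. Of the other 120 rows, 82 had no count in any library and 38 had 1 to 9 counts.

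The mice were male C57BL/6J, 6 to 8 weeks old, and received 2.5 ml/kg of 20% CCl4 in olive oil i.p., 2 injections a week for 4 weeks, with harvest 48 h after the last injection. CCl4 is a hepatotoxin that scars the liver, and all 6 libraries came from CCl4-treated mice with no genetic change. Liver cells sorted as NK cells, which the study's flow cytometry gates as CD3- and NK1.1+, were divided by surface CD36, a fatty acid receptor, into CD36+ NK (3 libraries) and CD36- NK (3 libraries). The sources used here do not say whether each library came from 1 mouse or a pool, so the tests measure the spread between these libraries. Library depth ran from 10292480 to 13787189 counts.

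An antibody is built from 2 identical heavy and 2 identical light chains. In each developing B cell, recombination joins 1 V segment to short D and J segments (heavy chain) or to a J segment (light chain), and the joined segment is spliced to a constant gene that sets the isotype. A naive B cell makes IgM and IgD, and class switching replaces them with IgG, IgA or IgE. Plasma cells secrete antibody and carry far more immunoglobulin messenger RNA per cell than resting B cells. The mix of constant genes therefore describes isotype, and the spread of counts over V genes describes how even the repertoire is.

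The NK label was checked first, against NK lineage and B cell genes. All 10 NK lineage genes tested were called lower in CD36+ NK, where 2.98% of all tested genes were. Their summed level was 913 to 1102 TMM-normalized CPM (counts scaled to library size) against 4885 to 6235 CPM in CD36- NK. B cell genes were present in every library, where 10 of them summed to 5737 to 6477 CPM for CD36+ NK and 3890 to 4423 CPM for CD36- NK. All 6 libraries thus held NK and B cell messenger RNA, and the immunoglobulin values below belong to that mixture. In bulk RNA, more cells of a type and more RNA per cell cannot be told apart. Cd36 itself was at 110, 263 and 238 CPM in CD36+ NK and at 14.3, 31.7 and 17.1 CPM in CD36- NK, in the direction of the labels.

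CD36+ NK replicate 1 stood apart in the members. Among the 189 members with at least 100 counts in all, it was the highest of the 6 libraries for 143, and CD36- NK replicate 3 was the lowest for 117. The same CD36+ NK library had T cell genes at a summed 296 CPM, where the other 5 libraries lay between 27.2 and 46.6 CPM, and Cd3e, a chain of the T cell receptor complex, at 27.0 CPM against at most 1.06 CPM elsewhere. The part of this in the immunoglobulin values was not tested, and calls that rest on a library are given with and without it.

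V genes resemble each other closely, which bears on how counts were divided between them. The V exons of all 226 V members were read from the GENCODE M21 transcripts (GRCm38). The median identity of a V member to its nearest relative was 94.9%, 112 of 226 had a relative at 95% or more, and 20 had 1 at 98% or more. Reads from such pairs could have been assigned to either gene, so a single V gene is less certain than its family. The pair of most counted kappa V genes shows this. Igkv1-117 (GRCm38 chr6:68121528-68121827, plus strand) and Igkv1-110 (chr6:68270968-68271267, plus strand) differ at 10 of the 300 V exon bases shown, and capitals mark the differing bases.
Igkv1-117: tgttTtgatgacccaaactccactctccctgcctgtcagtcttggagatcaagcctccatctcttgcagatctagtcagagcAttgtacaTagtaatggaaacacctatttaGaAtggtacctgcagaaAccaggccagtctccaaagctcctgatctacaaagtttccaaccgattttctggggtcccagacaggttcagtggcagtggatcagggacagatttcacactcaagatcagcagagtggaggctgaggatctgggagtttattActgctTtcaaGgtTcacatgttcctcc
Igkv1-110: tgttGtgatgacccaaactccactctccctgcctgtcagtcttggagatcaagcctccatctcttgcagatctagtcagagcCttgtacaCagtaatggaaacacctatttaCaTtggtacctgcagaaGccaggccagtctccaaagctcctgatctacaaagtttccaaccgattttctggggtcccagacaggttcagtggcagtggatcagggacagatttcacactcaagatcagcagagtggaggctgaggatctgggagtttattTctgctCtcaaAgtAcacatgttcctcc

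The 2 lambda constant genes that passed the adjusted p, Iglc2 (GRCm38 chr16:19198539-19198838, minus strand) and Iglc3 (chr16:19065368-19065667, minus strand), differ at 11 of the 300 constant exon bases shown, again in capitals. They are printed because their counts cannot be taken as fully separate measurements.
Iglc2: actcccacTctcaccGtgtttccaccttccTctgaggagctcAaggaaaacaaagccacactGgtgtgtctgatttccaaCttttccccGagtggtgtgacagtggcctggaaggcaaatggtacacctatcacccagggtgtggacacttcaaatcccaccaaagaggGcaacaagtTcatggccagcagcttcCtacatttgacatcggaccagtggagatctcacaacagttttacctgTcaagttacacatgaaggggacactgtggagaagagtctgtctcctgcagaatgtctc
Iglc3: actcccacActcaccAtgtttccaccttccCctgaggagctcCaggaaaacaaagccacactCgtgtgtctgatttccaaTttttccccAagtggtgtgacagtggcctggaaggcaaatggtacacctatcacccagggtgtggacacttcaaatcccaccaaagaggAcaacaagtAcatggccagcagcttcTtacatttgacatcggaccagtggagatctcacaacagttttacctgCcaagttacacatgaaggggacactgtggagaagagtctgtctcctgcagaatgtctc

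The single V gene called between the groups, Ighv1-81 (GRCm38 chr12:115920279-115920578, minus strand), was further from its nearest relative. It differs from Ighv1-85 (chr12:116000028-116000327, minus strand) at 22 of the 300 bases shown, in capitals, and the whole exons were 92.8% identical.
Ighv1-81: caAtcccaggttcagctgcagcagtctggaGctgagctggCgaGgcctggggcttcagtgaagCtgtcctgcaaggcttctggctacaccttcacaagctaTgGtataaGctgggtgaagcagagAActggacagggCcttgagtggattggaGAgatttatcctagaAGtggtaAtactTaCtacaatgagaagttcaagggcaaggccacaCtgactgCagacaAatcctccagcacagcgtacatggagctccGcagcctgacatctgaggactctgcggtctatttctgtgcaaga
Ighv1-85: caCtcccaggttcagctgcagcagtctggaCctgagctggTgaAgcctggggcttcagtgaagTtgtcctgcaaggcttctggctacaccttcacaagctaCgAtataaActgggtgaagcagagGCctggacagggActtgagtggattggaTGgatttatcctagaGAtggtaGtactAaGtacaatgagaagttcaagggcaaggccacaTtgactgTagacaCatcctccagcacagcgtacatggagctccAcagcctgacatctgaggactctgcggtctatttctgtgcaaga

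The 3′ ends of the 5 most counted heavy V genes are shown because germline sequence ends there in a rearranged message. Capitals mark the codon of the conserved cysteine that precedes CDR3, the part of the antigen site made by joining V, D and J. The 60 bases lie at chr12:114788372-114788431, chr12:114153180-114153239, chr12:114391712-114391771, chr12:115158403-115158462 and chr12:115208095-115208154 (GRCm38, minus strand), in the order printed.
Ighv1-26: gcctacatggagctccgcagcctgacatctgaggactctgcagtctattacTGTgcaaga
Ighv7-3: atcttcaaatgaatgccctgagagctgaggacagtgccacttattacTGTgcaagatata
Ighv6-3: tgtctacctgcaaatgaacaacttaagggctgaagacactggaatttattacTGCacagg
Ighv1-53: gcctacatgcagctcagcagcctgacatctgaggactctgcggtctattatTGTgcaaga
Ighv1-55: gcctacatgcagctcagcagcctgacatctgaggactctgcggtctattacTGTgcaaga

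The heavy chain constant genes gave the isotypes. Ighm, the constant gene of IgM, was the most counted member. It was at 8651, 6508 and 8108 CPM in the 3 CD36+ NK libraries and at 5722, 5080 and 3980 CPM in the 3 CD36- NK libraries. Every CD36+ NK library lay above every CD36- NK library, with a log2 fold change of 0.65 (SE 0.169, edgeR quasi-likelihood test, adjusted p = 0.0528), which missed the threshold of 0.05. The DESeq2 test gave an adjusted p of 0.00334 at a log2 fold change of 0.65 and edgeR with the library name form as a block one of 0.0348, while the edgeR adjusted p ran from 0.0742 to 0.155 over the omission of each library. Ighd, the constant gene of IgD, which naive B cells make beside IgM, was at 686, 645 and 439 CPM in CD36+ NK and at 570, 546 and 480 CPM in CD36- NK. The groups overlapped, and the log2 fold change was 0.15 (SE 0.176, adjusted p = 0.656).

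Igha, the constant gene of IgA, the antibody of mucosal surfaces, had a pattern of its own. It was at 1820, 568 and 620 CPM in CD36+ NK and at 1611, 1148 and 973 CPM in CD36- NK. CD36+ NK replicate 1 was the highest of the 6 and the other CD36+ NK libraries were the lowest. With all libraries the log2 fold change was -0.31 (SE 0.456, adjusted p = 0.73). Without CD36+ NK replicate 1 it was -1.08 with an adjusted p of 0.0321 (edgeR quasi-likelihood test). On omission of another library it ran from -0.46 to -0.03 and did not pass. Without the pair of libraries whose names have another form, replicate 1 of each group, it was -0.85 with an adjusted p of 0.0428.

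The IgG genes overlapped between the groups. Ighg2b was at 339, 178 and 202 CPM in CD36+ NK and at 256, 201 and 98.9 CPM in CD36- NK. Ighg2c, the C57BL/6 form of IgG2a, was at 434, 189 and 202 CPM against 320, 176 and 116 CPM. Ighg3, an isotype made against carbohydrate antigens, was at 235, 152 and 190 CPM against 166, 138 and 132 CPM. In all of them replicate 1 was the highest library of its group and CD36- NK replicate 3 the lowest of the 6. Ighg1 was lower by an order of magnitude, at 29.99, 7.06 and 26.2 CPM against 20.4, 15.6 and 2.93 CPM. The log2 fold changes of the 4 IgG genes were 0.37 (SE 0.374) for Ighg2b, 0.43 (SE 0.443) for Ighg2c, 0.40 (SE 0.172) for Ighg3 and 0.69 (SE 0.712) for Ighg1, and none passed the test, with adjusted p from 0.19 to 0.609. Ighe, the constant gene of IgE, had 63 counts in all, with 0.166 to 1.16 CPM across CD36+ NK libraries against 0.195 to 1.84 CPM in the others.

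**Figure D1:**
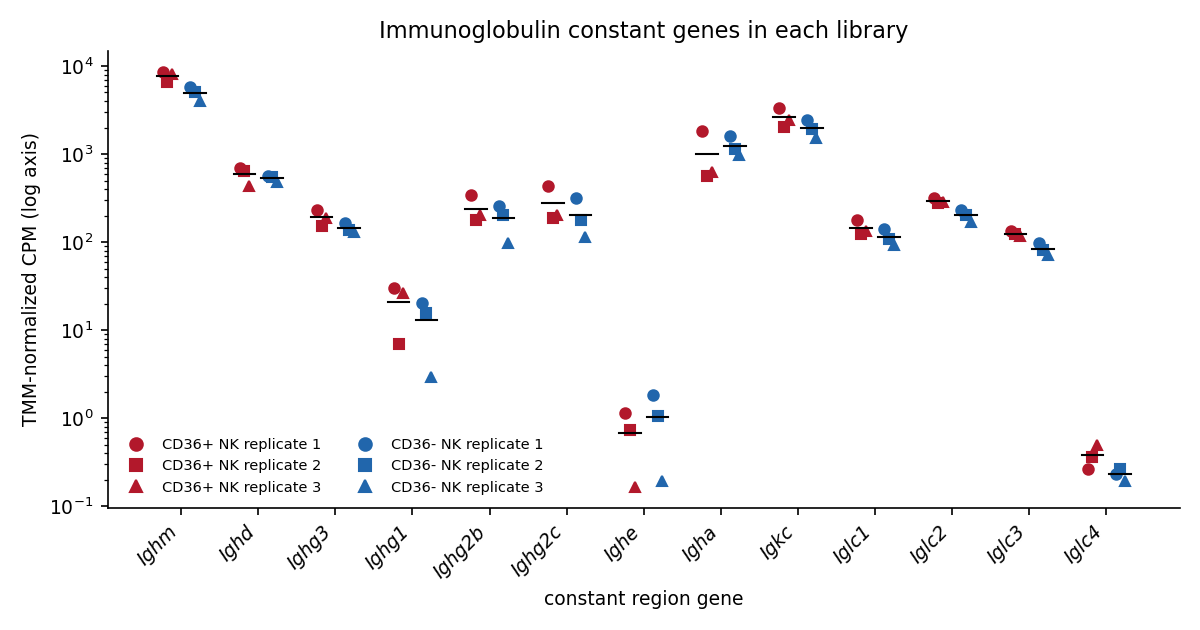
Each point is the TMM-normalized CPM (log axis) of a constant region gene in 1 library, red for CD36+ NK and blue for CD36- NK, with the marker shape giving the replicate and the black line the group mean (n = 3). Ighm reaches 8651 CPM and separates the groups, while Igha of CD36+ NK replicate 1 (1820 CPM) lies far from the 568 and 620 CPM of the other CD36+ NK libraries.

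Shares between isotypes were taken from FPKM, counts per gene length and depth, so that genes of different lengths could be compared. IgM made up 73.0%, 79.4% and 83.8% of the summed heavy constant FPKM in CD36+ NK and 68.5%, 71.8% and 71.1% in CD36- NK. IgA made up 11.4%, 5.12% and 4.74% in CD36+ NK and 14.3%, 11.99% and 12.9% in CD36- NK. Neither share overlapped between the groups, the IgM share being higher and the IgA share lower in every CD36+ NK library. The difference of group means was 8.28 percentage points for IgM and -5.97 for IgA, and over the omission of each library it ran from 5.74 to 11.1 for IgM and from -8.11 to -4.80 for IgA. No p is given for shares over the members, and an exact permutation test of 3 against 3 libraries could not go below 0.1.

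IgD made up 6.76%, 9.20% and 5.30% in CD36+ NK and 7.97%, 9.01% and 10.02% in CD36- NK, which overlapped. Relative to IgM it fell just short of an overlap, 0.0632 to 0.1158 against 0.1163 to 0.141, with an Ighd to Ighm ratio in FPKM of 0.0905 ± 0.0264 (SD, n = 3) for CD36+ NK against 0.128 ± 0.0125 for CD36- NK. The Igha to Ighm ratio was 0.0922 ± 0.055 against 0.185 ± 0.0209. The ratio of all IgG to IgM overlapped, at 0.0908 ± 0.0261 against 0.106 ± 0.0255, and so did that of switched (IgG, IgA and IgE) to unswitched (IgM and IgD) isotypes, at 0.168 ± 0.074 against 0.259 ± 0.0417. On counts alone, where the precision of 1 library can be stated, Igha was 14.9% of heavy constant counts in CD36+ NK replicate 1 (95% Wilson interval 14.7 to 15.1) and 6.34% in CD36+ NK replicate 3 (6.20 to 6.48). These libraries of 1 group differed by far more than counting error, which is all that the intervals cover.

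**Figure D2:**
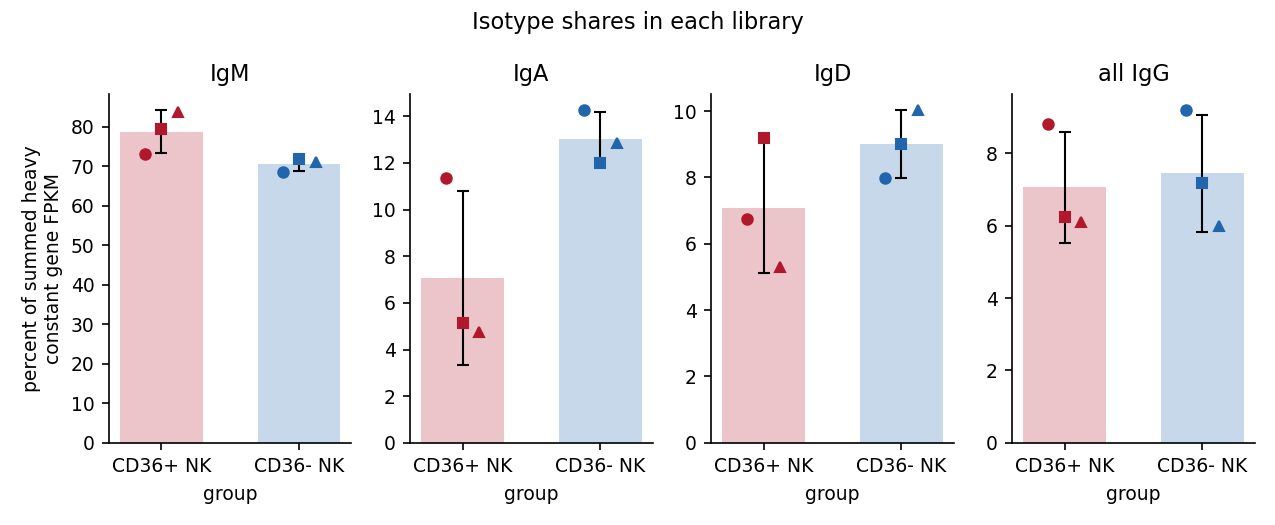
Bars give the group mean and error bars the SD (n = 3) of each isotype's percent of the summed heavy constant FPKM, with points for the libraries (circle, square and triangle for replicates 1, 2 and 3). IgM runs from 73.0% to 83.8% in the CD36+ NK libraries, above the 68.5% to 71.8% of CD36- NK, and the IgA share of CD36+ NK replicate 1 (11.4%) lies nearest to the CD36- NK libraries.

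Light chains were mostly kappa, as is usual in the mouse. Igkc, the kappa constant gene, was at 3346, 2054 and 2454 CPM in CD36+ NK and at 2460, 1901 and 1523 CPM in CD36- NK, which overlapped (log2 fold change 0.42, SE 0.231, adjusted p = 0.31). It made up 86.4%, 82.7% and 84.8% of light constant FPKM in CD36+ NK and 86.1%, 85.5% and 84.5% in CD36- NK, and the kappa to lambda ratio in FPKM was 5.58 ± 0.801 against 5.85 ± 0.376 (SD, n = 3). The shares and the ratio overlapped between the groups.

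The lambda constant genes had smaller standard errors than Igkc. Iglc2 was at 320, 276 and 286 CPM in CD36+ NK and at 230, 201 and 171 CPM in CD36- NK. Iglc3 was at 132, 125 and 118 CPM against 98.1, 80.6 and 71.5 CPM. Neither overlapped between the groups, and both passed the adjusted p with a fold under 2, at log2 fold changes of 0.55 (SE 0.129, adjusted p = 0.0392) and 0.58 (SE 0.128, adjusted p = 0.0335). On omission of each library in turn the adjusted p of the edgeR test was 0.0556 to 0.111 for Iglc2 and 0.0319 to 0.101 for Iglc3, which passed only without CD36- NK replicate 1. Iglc1 was at 178, 124 and 133 CPM against 141, 108 and 92.9 CPM, with a log2 fold change of 0.34 (SE 0.195, adjusted p = 0.322). Iglc4, which had 22 counts in all, was not tested.

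The lambda V genes all had a log2 fold change above 0, and none passed the edgeR test with all libraries and no block. Iglv2 passed by DESeq2 (adjusted p = 0.0194). By edgeR it passed with the library name form as a block (0.0444) and without CD36+ NK replicate 2 (0.0476). Iglv3 passed by edgeR with the library name form as a block (0.0411). Iglv1, which joins mainly to Iglc1 and Iglc3, was at 281, 173 and 205 CPM in CD36+ NK and at 211, 168 and 140 CPM in CD36- NK (log2 fold change 0.34, SE 0.215, adjusted p = 0.373). Iglv2, which joins mainly to Iglc2, was at 159, 100 and 127 CPM against 91.3, 87.9 and 76.8 CPM (0.60, SE 0.171, adjusted p = 0.0703). Iglv3, the least counted of them, was at 28.6, 21.8 and 20.5 CPM against 19.0, 15.9 and 12.6 CPM (0.57, SE 0.198, adjusted p = 0.115). Iglv2 and Iglv3 did not overlap between the groups and Iglv1 did. The Iglv1 share of lambda V FPKM was 70.7%, 69.0% and 69.3% in CD36+ NK and 75.2%, 72.3% and 71.8% in CD36- NK, without overlap. Iglv1 and Iglv2 are 97.0% identical in the V exon, so some of their reads could have been assigned to either gene.

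Across the V genes the levels leaned to CD36+ NK by a small amount. Of 239 members, 201 passed the filter on low counts and were tested, and the 38 others were 17 heavy V genes, 20 kappa V genes and Iglc4. Of the tested members, 1 was called higher in CD36+ NK (adjusted p below 0.05 and fold above 2) and 0 were called lower, where 2.98% of all 14761 tested genes were called higher, 2.98% lower and 5.96% in either direction. With no fold threshold 5 members passed the adjusted p, all higher, which is 2.49% of those tested against 10.5% of all genes. The same shares were 7.96% against 15.7% by DESeq2 and 9.45% against 11.7% with the library name form as a block. On omission of replicate 2 or 3 of either group 2 members passed (0.957% to 0.980%), against 3.52% to 4.36% of all genes, or 11.5% without CD36- NK replicate 2. Without CD36+ NK replicate 1 it was 5 members (2.42% against 11.5%), and without CD36- NK replicate 1 it was 7 (3.40% against 4.10%). At an unadjusted p below 0.05 there were 30 higher members (14.9%, against 14.2% of all genes) and 1 lower member (12.1% of all genes).

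The direction was more uniform than the calls. The log2 fold change was above 0 for 181 of 201 members, where 51.9% of all tested genes were above 0, and its median was 0.42 against 0.01 over all genes. The median was 0.40 for heavy V genes, 0.43 for kappa V genes, 0.57 for lambda V genes, 0.39 for heavy constant genes and 0.48 for light constant genes. The median SE was 0.332 for members and 0.170 for all genes. Every CD36+ NK library lay above every CD36- NK library for 26 members (12.9%), where 17.0% of all genes did, and 0 members lay the other way, where 15.7% of all genes did. Without CD36+ NK replicate 1 the median fell to 0.16, with 136 of 207 tested members above 0, and 3 members were called lower, Igha, Ighv9-2 and Ighv7-4, where 3.64% of all genes in that fit were called lower. Without CD36- NK replicate 3 the median was 0.24 and without CD36- NK replicate 1 it was 0.63. These libraries therefore set much of the size of the lean.

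**Figure D3:**
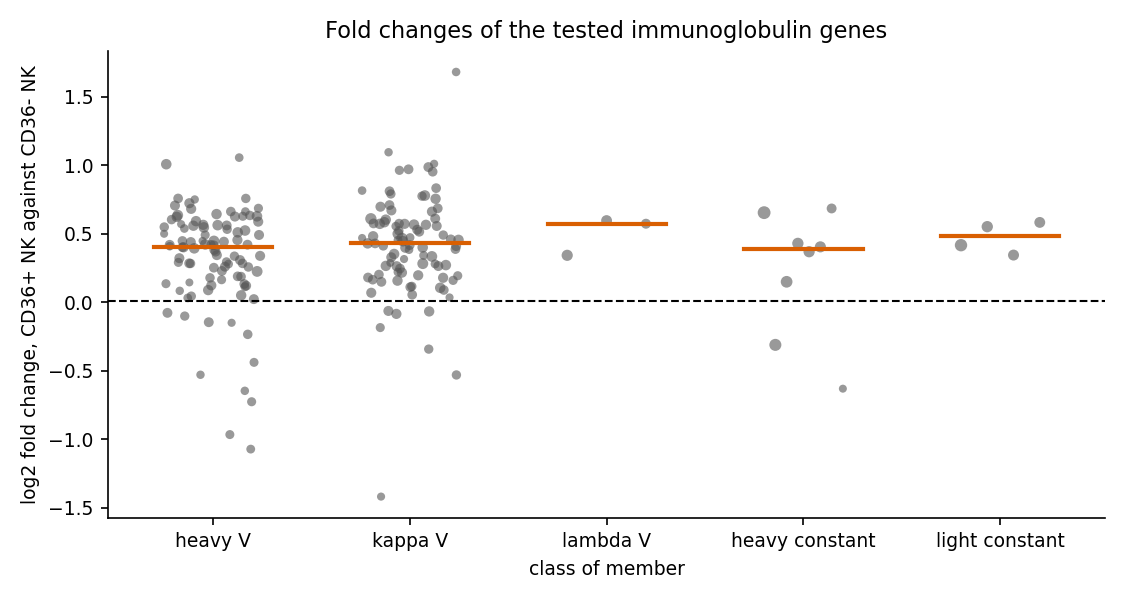
Points are the log2 fold changes (CD36+ NK against CD36- NK) of the 201 tested members by class, with larger points for more counts, orange lines for the class medians and a dashed line for the median of all tested genes (0.01). All 5 class medians lie between 0.39 and 0.57, and 181 points lie above 0.

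Members in all made up 2.36%, 1.49% and 1.72% of library counts in CD36+ NK and 1.69%, 1.40% and 1.08% in CD36- NK, which overlapped. Within each form of library name, replicate 1 of each group or replicates 2 and 3, every CD36+ NK library was above every CD36- NK library. This split was chosen after the data were seen, and its first part compares only 1 library with 1. The mean summed CPM was 1.37 times as high in CD36+ NK as in CD36- NK, 1.21 times without CD36+ NK replicate 1 and 1.54 times without CD36- NK replicate 1. The summed level of the 10 B cell genes was higher in CD36+ NK without overlap. Singly 8 of the 10 did not overlap, where 17.0% of all tested genes lay wholly higher. The adjusted p was passed by 7, where 10.5% of all tested genes passed. With the replicate block 4 passed, and 0 to 6 over the omission of each library. This was 0 without CD36+ NK replicate 2 or 3, 1 without CD36- NK replicate 1 and 2 without CD36- NK replicate 3. Relative to the summed B cell genes the constant genes did not separate the groups in the same way. Ighm per summed B cell CPM was 1.48, 1.00 and 1.41 in CD36+ NK and 1.29, 1.21 and 1.02 in CD36- NK, which overlapped. Igha per summed B cell CPM was 0.311, 0.0876 and 0.108 against 0.364, 0.274 and 0.250, which also overlapped through CD36+ NK replicate 1. Ighd on this scale was lower in every CD36+ NK library, at 0.117, 0.0996 and 0.0765 against 0.129, 0.130 and 0.123.

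Ighv1-81 was the called member, and belongs to Ighv1, the largest heavy V family. It was at 74.6, 85.0 and 63.6 CPM in CD36+ NK and at 44.1, 38.3 and 28.4 CPM in CD36- NK. Every CD36+ NK library was above every CD36- NK library, with a log2 fold change of 1.01 (SE 0.182, adjusted p = 0.0182). It lay just at the fold of 2, and the call was lost without CD36+ NK replicate 1 (log2 fold change 0.99), without CD36- NK replicate 3 (0.85) and without CD36+ NK replicate 2, where the adjusted p of the edgeR quasi-likelihood test was 0.07. The other members that passed the adjusted p were chosen for naming after their values were seen. Igkv6-20 was at 17.1, 20.2 and 20.4 CPM against 11.4, 7.96 and 10.1 CPM (log2 fold change 0.97, SE 0.171, adjusted p = 0.0163), and its V exon is 98.3% identical to that of Igkv6-29. Igkv9-120 was at 105, 77.3 and 87.5 CPM against 64.6, 47.1 and 45.1 CPM (0.78, SE 0.174, adjusted p = 0.0349). Neither overlapped between the groups. Igkv6-20 lost the adjusted p with the replicate block and on omission of replicate 2 or 3 of CD36+ NK or of replicate 3 of CD36- NK, and Igkv9-120 with no filter on low counts and on omission of any library but CD36- NK replicate 1. The 1 member lower at an unadjusted p, Igkv4-62, rested on 76 counts in all, with a log2 fold change of -1.42 (SE 0.489, adjusted p = 0.114).

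None of the 5 most counted heavy V or kappa V genes passed the edgeR test with all libraries and no block, while DESeq2 passed Ighv1-53 (adjusted p = 0.0330), Ighv6-3 (0.0201) and Igkv1-110 (0.0484). Among heavy V genes Ighv1-26 was at 143, 97.9 and 112 CPM in CD36+ NK and at 104, 85.0 and 68.8 CPM in CD36- NK. Ighv7-3 was at 123, 74.2 and 121 CPM against 90.2, 86.1 and 96.1 CPM, and Ighv6-3 at 138, 83.5 and 122 CPM against 82.0, 69.3 and 69.8 CPM. Of these only Ighv6-3 separated the groups, with a log2 fold change of 0.64 (SE 0.186, adjusted p = 0.0744), which did not pass. Ighv1-53 was at 0.63 (SE 0.199, adjusted p = 0.093) and Ighv1-55 at 0.39 (SE 0.304, adjusted p = 0.476) on the same log2 scale.

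Among kappa V genes Igkv1-117 led, at 379, 245 and 278 CPM in CD36+ NK and at 262, 223 and 168 CPM in CD36- NK. Igkv1-110, printed beside it above, was at 355, 231 and 299 CPM against 230, 206 and 143 CPM. The first overlapped between the groups, and the second missed an overlap by little. Their log2 fold changes were 0.47 (SE 0.213) and 0.61 (SE 0.218), with adjusted p of 0.221 and 0.126. Igkv10-96 (0.28, SE 0.222), Igkv1-135 (0.50, SE 0.300) and Igkv6-15 (0.33, SE 0.307) followed, and none of the 3 passed the test.

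Evenness of V gene use was measured as the effective number of V genes, the inverse Simpson index, which is the number of equally used genes that would give the same chance of drawing 1 gene in both of 2 draws. For the heavy chain it was 45.3, 40.4 and 39.5 in CD36+ NK and 47.1, 45.8 and 39.5 in CD36- NK. For kappa it was 30.2, 28.0 and 27.9 against 31.6, 28.8 and 32.2. Both overlapped between the groups, the mean being lower in CD36+ NK by a difference of -5.45% for heavy and -7.00% for kappa. The number of V genes expected at a fixed number of counts lay near its upper limit in every library (107.4 to 109.9 of 112 heavy and 105 to 109.8 of 111 kappa V genes). It so gave no direction to set beside these. The fixed number was the total of CD36- NK replicate 3, whose value is therefore its number of detected V genes. For lambda, with 3 V genes, the effective number was 2.09, 2.15 and 2.12 against 1.94, 2.04 and 2.05, higher in every CD36+ NK library. Without Iglv1 the lambda difference shrank from 5.58% to 0.151%, so that it restated the lower Iglv1 share.

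**Figure D4:**
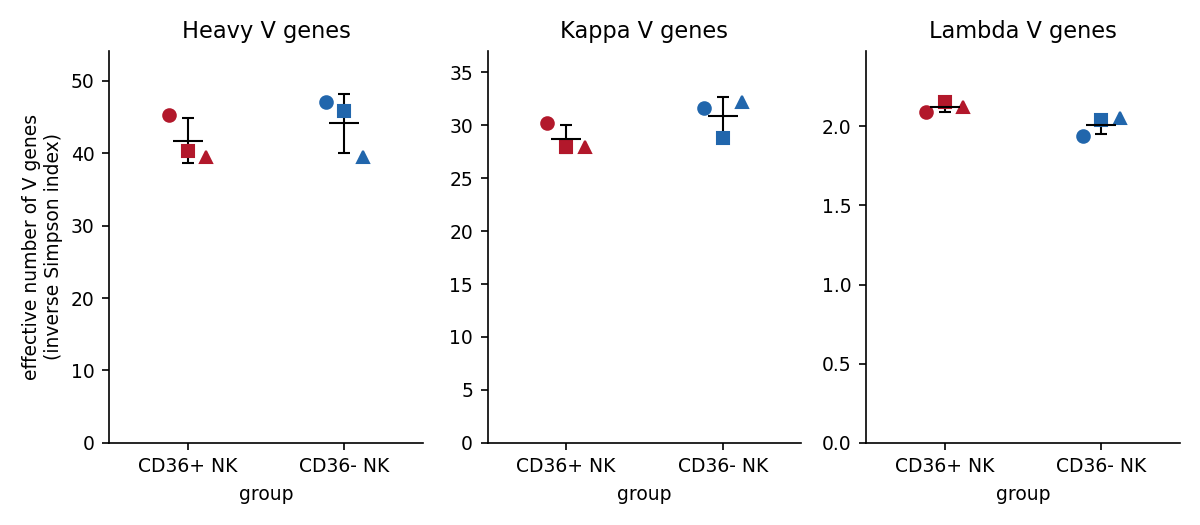
Points are the effective number of V genes (inverse Simpson index) in each library, by chain, with circle, square and triangle for replicates 1, 2 and 3, and a line and error bar for the mean and SD (n = 3). Heavy V lies between 39.5 and 47.1 and kappa V between 27.9 and 32.2 with the groups overlapping, and the lambda V values of CD36+ NK (2.09 to 2.15) lie above those of CD36- NK (1.94 to 2.05).

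The repertoires were broad in every library. Heavy V counts numbered 13067 to 32398 a library. The members were the 112 of 183 heavy V genes with at least 10 counts in all, and 108 to 112 of them had a count in each library. That minimum makes a count in most libraries likely, so this number does not measure breadth. The most used heavy V gene, Ighv1-26, Ighv6-3 or Ighv7-3 by library, held 4.94% to 7.53% of heavy V counts, and the 10 most used held 35.3% to 40.3%. The most used kappa V gene, Igkv1-117 in 5 libraries and Igkv1-110 in CD36+ NK replicate 3, held 9.55% to 10.7% of kappa V counts. Pielou evenness, which is 1 when all V members of the chain are used equally, ran from 0.850 to 0.875 for heavy and from 0.822 to 0.839 for kappa. No V gene dominated a library. Of 176 V members with at least 30 counts in a library, only Ighv1-36 and Ighv2-6-8, chosen by this comparison, had a highest library above 2 times the next. Both were highest in CD36+ NK replicate 1, with 75 and 53 counts there.

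**Figure D5:**
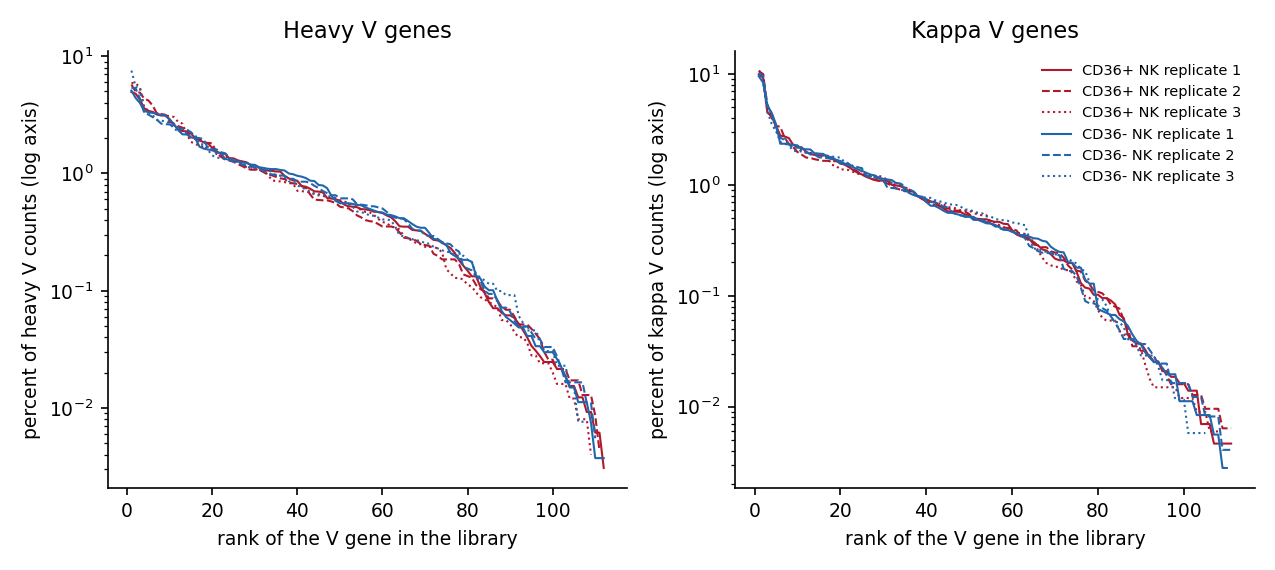
Lines give each library's V genes in order of use, as percent of heavy V or kappa V counts (log axis) against rank, red for CD36+ NK and blue for CD36- NK, with solid, dashed and dotted lines for replicates 1, 2 and 3. The 6 curves run close together, from 4.94% to 7.53% at the first rank for heavy V and 9.55% to 10.7% for kappa V.

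V gene use was also compared between pairs of libraries. The share of heavy V use that differed between a pair of libraries, the summed absolute difference of shares divided by 2, was 6.51% to 15.0% over the 9 pairs between groups (median 11.2%). It was 9.98% to 13.4% over the 3 pairs within CD36+ NK and 8.30% to 10.4% over the 3 pairs within CD36- NK. For kappa it was 6.23% to 10.9% between groups (median 9.74%), 9.32% to 9.79% within CD36+ NK and 7.21% to 9.25% within CD36- NK. The lowest value between groups for both chains was that of the replicate 1 pair, whose library names share a form, and without this pair the kappa range between groups began at 8.35%.

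By share of V counts, Ighv1 and Igkv1 led their chains in every library, although Igkv4 with 31 members has more genes than Igkv1 with 11. Ighv1 held 51.4%, 52.5% and 49.2% of heavy V counts in CD36+ NK and 51.6%, 50.6% and 48.5% in CD36- NK, and 44 of its 47 tested genes had a log2 fold change above 0. Igkv1 held 25.5%, 26.4% and 27.1% of kappa V counts against 24.2%, 25.7% and 24.0%. The Igkv9 share was higher in every CD36+ NK library (3.79%, 4.36% and 4.67% against 3.52%, 3.45% and 3.27%) and the Ighv5 share lower (7.59%, 7.26% and 6.88% against 7.79%, 8.45% and 8.28%), with no overlap also for Ighv8, Igkv3, Igkv14 and Igkv15, all lower. These are 6 of the 35 heavy and kappa families, where 17.0% of all tested genes lay wholly higher and 15.7% wholly lower in CPM, and no test was made of a share.

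Ighv11-2 and Ighv12-3, V genes known from B-1 cells, were looked at after their values were seen. Ighv11-2 was at 10.1, 4.86 and 6.90 CPM in CD36+ NK and at 9.92, 8.40 and 2.73 CPM in CD36- NK, with a log2 fold change of 0.04 (SE 0.474, adjusted p = 0.968). Ighv12-3 had 115 counts in all and a log2 fold change of 0.08 (SE 0.466, adjusted p = 0.938). Both overlapped between the groups.

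Medians along each locus were close to each other. When the heavy V members were put in order of distance from Ighm on chromosome 12, the median log2 fold change was 0.33 over the 34 tested genes nearest to it, 0.45 over the 31 tested in the middle and 0.34 over the 30 tested farthest away. For kappa V on chromosome 6, by distance from Igkc, the medians were 0.40 over 31 tested genes, 0.41 over 31 and 0.47 over 29. The 37 farthest kappa V members held 49.0% to 53.2% of kappa V counts in every library. Pseudogenes by GENCODE type were 20 of the 226 V members and held 0.204% of V counts.

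Other genes of the pathway showed a lean of similar size, with less scatter, and which cells of the mixture they came from was not tested. Of 35 such genes, 29 were tested and 26 had a log2 fold change above 0 (89.7%, against 51.9% of all tested genes). The adjusted p was passed by 12 (41.4%, against 10.5%), and 0 passed it with a fold above 2 (against 5.96%). The 12 became 8 with the replicate block, 2 without CD36+ NK replicate 2 or 3 and 3 without CD36- NK replicate 1 or 3. Summed, they reached 10011 to 10372 CPM in the CD36+ NK libraries against 6967 to 8090 CPM in CD36- NK. Among the receptor partners, Cd79a, which carries the signal of surface immunoglobulin, was at 1088, 1027 and 941 CPM against 825, 700 and 644 CPM (log2 fold change 0.49, SE 0.122, adjusted p = 0.0457). Its groups did not overlap, its SE was below the median SE of the members, 0.332, and on omission of each library it missed the threshold, with an edgeR adjusted p of 0.0521 to 0.136. Pou2f2, an octamer factor that acts on immunoglobulin promoters, had a log2 fold change of 0.99 (SE 0.171, adjusted p = 0.0157), and its coactivator Pou2af1 0.48 (SE 0.168, adjusted p = 0.122). Pou2f2 missed the threshold without CD36+ NK replicate 2 or 3 or CD36- NK replicate 1 or 3 (edgeR adjusted p from 0.0601 to 0.0633). The 8 tested J segments were all above 0 and 0 were called. No D segment had over 6 counts. Rag1 and Rag2, the recombinase of V(D)J joining, had 45 and 11 counts in all.

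Genes of antibody secretion varied. Jchain, which links polymers of IgM and IgA, was at 1198, 600 and 829 CPM in CD36+ NK and at 879, 485 and 572 CPM in CD36- NK (log2 fold change 0.44, SE 0.301, adjusted p = 0.415). Mzb1, a chaperone of immunoglobulin assembly, was at 141, 144 and 150 CPM against 88.3, 75.3 and 59.0 CPM (0.96, SE 0.147, adjusted p = 0.0101). Irf4 (0.36, SE 0.257) and Txndc5 (0.11, SE 0.133) had overlapping groups. Prdm1, a regulator of plasma cell fate, went the other way and is named after its values were seen, at 28.7, 26.2 and 38.4 CPM against 47.0, 47.1 and 71.4 CPM with no overlap (-0.83, SE 0.216, adjusted p = 0.0547). Which cells of the mixture its RNA came from was not tested. Over the 10 plasma cell genes, 1 passed the adjusted p (10%, against 10.5% of all tested genes) and 0 were called. With the replicate block, upper-quartile scaling or the DESeq2 test 2 passed. The median log2 fold change was 0.43 and the summed level 1564 to 2291 CPM against 1218 to 1825 CPM. Igha per Jchain, both in CPM, was 1.52, 0.945 and 0.748 in CD36+ NK and 1.83, 2.37 and 1.70 in CD36- NK, with no overlap and CD36+ NK replicate 1 again nearest to the other group.

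Markers of other cell types are given beside the gate named above, which leaves out CD3+ cells and keeps NK1.1+ ones. Of all tested genes 51.9% were above 0, 2.98% were called higher and 2.98% lower. Of 10 B cell genes all were above 0 and 1 was called, Cr2, a complement receptor, with a log2 fold change of 1.04 (SE 0.195, adjusted p = 0.0206). Of 9 genes of B-1 and marginal zone B cells, 4 were called higher, Cr2, S1pr3 (log2 fold change 1.53), Zbtb32 (1.35) and Bhlhe41 (1.12), while Spn was at -0.42 on the same scale (SE 0.134, adjusted p = 0.0948). Of 5 germinal centre genes 0 were called, with a median of -0.16. Of 6 plasmacytoid dendritic cell genes 0 were called, with a median of 0.31. Of 9 tested macrophage genes 4 were called higher, with a summed 2431 to 5936 CPM against 390 to 1463 CPM, and of 7 T cell genes 2 were called higher. With the replicate block 1 macrophage gene, 0 T cell genes and 3 genes of B-1 and marginal zone B cells were called higher. Without replicate 1 of both groups 0 macrophage genes were called, and 1 T cell gene was called lower. The T cell genes summed to 296, 27.6 and 46.6 CPM in CD36+ NK against 27.3, 30.9 and 27.2 CPM, which overlapped, and without CD36+ NK replicate 1, the highest, 2 were called higher and 3 lower. On omission of replicate 2 or 3 of CD36+ NK, or of replicate 1 or 3 of CD36- NK, 0 B cell genes, 0 macrophage genes and 2 genes of B-1 and marginal zone B cells were called higher, and 0 T cell genes without CD36+ NK replicate 3 or without any 1 of the CD36- NK libraries. Every list had a summed level above 0 in every library, and the part of these cells in the immunoglobulin values was not tested.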

How the data were processed

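RNA was sequenced from 3 CD36+ NK and 3 CD36- NK libraries. The authors deposited whole-number counts per gene and FPKM in 1 table (HISAT2 2.0.4 per the submitters' processing notes, which name a rat build, mRatBN7.2, although the table's identifiers are mouse and its coordinates name no build). For the 225 members with a count in every library, the deposited FPKM was proportional to count over library total within 0.1% across the libraries. Groups and replicate numbers came from the sample titles. The library names number the samples differently and those of CD36+ NK carry a doubled minus sign, while Cd36 levels follow the titles. In addition, 2 broken lines of the table were rejoined. How reads of near-identical V genes were assigned is not given in the sources used here.

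Counts were tested with edgeR 4.0.16 (R 4.3.3): filterByExpr with a minimum count of 10, TMM scaling, a quasi-likelihood test without a block and Benjamini-Hochberg adjustment over 14761 genes. A gene was called at an adjusted p below 0.05 and a fold above 2. The SE of a log2 fold change is its size divided by the square root of F. DESeq2 1.42.0 was an alternative. The fit and the evenness index were tested on simulated data. Shares used FPKM, and evenness the unbiased inverse Simpson index of counts. Members, lists and the rule for named genes (all constant genes, the 5 most counted V genes a chain, called members, and called or the 3 most counted genes of a list) were chosen with earlier results of these data known. V gene promoters were not analysed here. Some listed genes are not reported here. Total counts were 10292480 to 13787189 a library, and Wilson intervals cover counting error only.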

Additional observations from a re-analysis of the deposited data

How the results depend on the processing

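The number of members called higher was 1 under upper-quartile scaling, DESeq2 size factors, no filter, a minimum of 10 counts in every library, the DESeq2 test, the replicate block and scaling without the immunoglobulin genes. It was 2 with the library name form as a block, which like the omission of replicate 1 of both groups was chosen after seeing the data, and 0 to 3 over the omission of each library. The number called lower was 0 to 3 over the omission of each library, with 3 only without CD36+ NK replicate 1. The number that passed the adjusted p alone was 2 with no filter on low counts, 16 by DESeq2 (with Ighm, Iglc2, Iglc3, Ighv1-53, Ighv6-3 and Igkv1-110 among them), 3 without the 2 libraries of the other name form, 19 with the name form as a block and 2 to 7 over the omission of each library. Ighv1-81 was not called without CD36+ NK replicate 1 (log2 fold change 0.99), without CD36+ NK replicate 2 (0.90), without CD36- NK replicate 3 (0.85) or without the libraries of the other name form (1.14, adjusted p = 0.0695). Over the omission of each library the log2 fold change changed sign for Ighg2c (-0.0752 to 0.907) and Igkv6-15 (-0.0177 to 0.583), without CD36+ NK replicate 1, and for Ighe (-1.20 to 0.0815), without CD36- NK replicate 1. It ran from 0.188 to 0.603 for Igkc, 0.0156 to 0.325 for Ighd and 0.218 to 1.16 for Ighg1. With no filter, Iglc2 and Iglc3 missed the adjusted p (0.0613 and 0.0536). The causes were not tested. The labels do not say whether replicate numbers pair the samples. The deviations of samples sharing a number correlated at 0.31, 0.05 and -0.08. The 0.31 of the replicate 1 libraries was the highest value between the groups. Next came 0.25, for replicate 3 of CD36+ NK with 2 of CD36- NK. Whether the replicate 1 libraries share an origin was not tested. The numbers in the library names are shared by 2 pairs, replicate 1 of CD36+ NK with 2 of CD36- NK (-0.25), and 2 of CD36+ NK with 3 of CD36- NK (0.12). With the replicate block, 1 member was called higher, and 6 passed the adjusted p, among them Ighv1-53 (0.0394) but not Igkv6-20.

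The share differences kept their sign for IgM and IgA on counts and over the omission of each library. Over the omission of each library the difference of means in percentage points ran from -2.97 to -1.02 for Ighd, -0.0222 to 0.0684 for Ighg1, -0.432 to 0.0494 for Ighg2b, -0.811 to 0.551 for Ighg2c, -0.187 to -0.0254 for Ighg3 and -1.63 to 0.252 for Igkc. The effective number of V genes differed by -10.2% to -2.18% for heavy, -10.03% to -4.95% for kappa and 3.74% to 6.65% for lambda. The kappa difference was -0.781% as Pielou evenness, and the lambda difference was 0.151% without Iglv1. As the number of V genes expected at a fixed number of counts the kappa difference was 0.769%. No direction is read from this measure, which lay near its upper limit. Of the 50 members under 100 counts in all, 38 were too rare to be tested.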
